A study of Caenorhabditis elegans with 10 samples.

Results

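The 10 collagen genes described here, whose mutants change the body shape of Caenorhabditis elegans, are dpy-4, dpy-5, dpy-13, dpy-17, sqt-1, sqt-2, sqt-3, rol-6, rol-8 and lon-3. They are the dpy, sqt, rol and lon collagens outside the furrow group, taken by gene symbol, and all 10 were found among the 20182 genes of the footprint count table. The data are ribosome footprints, the mRNA fragments covered by translating ribosomes. They came from whole N2 worms, the wild-type laboratory strain, fed on bacteria after hatching without food. Worms were collected at 18, 20, 22, 24, 26, 28, 30, 32, 34 and 36 h after plating, with 1 library at each time and no other genotype or treatment. Larval stages were not given in the sources used here. Library totals ran from 16723638 to 33696423 counts.

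The worm's cuticle is a collagen exoskeleton that the epidermis secretes anew before each moult. Its collagens are short chains of Gly-X-Y repeats that are hydroxylated and folded in the endoplasmic reticulum, assembled as trimers, trimmed by proteases and cross-linked outside the cell. Mutations in single cuticle collagens make worms short and fat (dumpy, dpy; squat, sqt), helically twisted (roller, rol) or long (lon). The 6 furrow collagens, named dpy-2, dpy-3, dpy-7, dpy-8, dpy-9 and dpy-10, form the bands beneath the annular furrows and serve here as the closest comparison. In whole worms, fewer epidermal cells and less footprint RNA per cell cannot be told apart, and neither can changes in mRNA level and in its translation.

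All 10 genes passed the filter on low counts, and 9 of the 10 cycled with a period of 8 h, against 22.7% of the 13958 genes tested. The exception was dpy-17. Peak-to-trough differences of the 9 ran from 4.70 to 5.92 log2, with edgeR quasi-likelihood adjusted p from 0.00301 to 0.00736. The median over all 10 genes was 5.11 log2, beside 0.59 log2 over all tested genes. Genes were called at an adjusted p below 0.05 with a fitted trough at least 1 log2 under the fitted peak. With 1 library per time, the error is the scatter of the 10 libraries around a curve of linear time and an 8 h cosine. With periods of 7 h and 9 h none of the 10 genes was called by edgeR, although 7 and 3 of them had an unadjusted p under 0.05. With 8.5 h only dpy-4, dpy-5, dpy-13, rol-6 and lon-3 were. A period of 7.5 h gave the same 9 genes as 8 h.

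The 10 genes together took 3.12% to 4.07% of all footprint counts at their high points. Their summed share of all footprint counts was 1.09% at 18 h, 4.07% at 20 h, 0.420% at 22 h, 0.436% at 24 h and 3.68% at 26 h. It was 3.24% at 28 h, 0.485% at 30 h, 0.274% at 32 h, 3.18% at 34 h and 3.12% at 36 h. The high libraries were those at 20, 26, 28, 34 and 36 h, and none of the other libraries came above 1.09%. The 6 furrow collagens held 0.580%, 0.0915%, 0.00668%, 0.392% and 0.399% of counts from 18 h to 26 h. From 28 h to 36 h they held 0.0181%, 0.00839%, 0.236%, 0.299% and 0.0117%. At 20, 28 and 36 h the summed share of the 10 genes was therefore high while that of the furrow collagens was low.

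**Figure D1:**
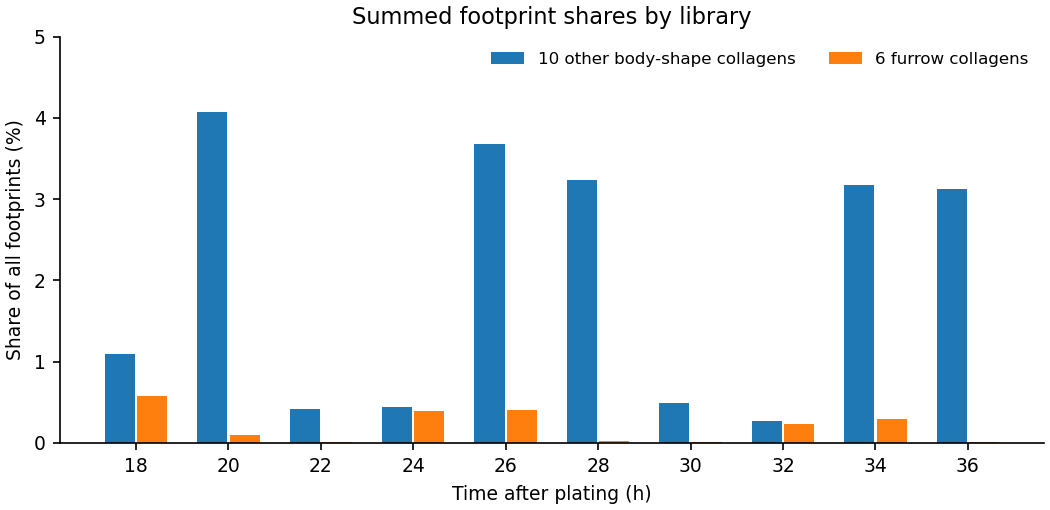
Bars give the share of all footprint counts (%) in each library (time after plating in h) that fell on the 10 other body-shape collagens (blue) and on the 6 furrow collagens (orange). The blue bars reach 4.07% at 20 h and stay above 3% at 26, 28, 34 and 36 h, while the orange bars do not exceed 0.580%.

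The 9 cycling genes are described as 3 courses, which were grouped after their values had been seen. The first holds dpy-4, dpy-5 and dpy-13, cuticle collagens whose loss makes worms dumpy. Levels are given as CPM, counts scaled to a library of 1000000 after TMM scaling, and CPM is not corrected for gene length. Footprints of dpy-5 (WBGene00001067) stood at 1484, 9126, 1440, 504 and 6751 CPM at 18, 20, 22, 24 and 26 h. They stood at 10050, 1493, 319, 6520 and 9905 CPM at 28, 30, 32, 34 and 36 h. Each round thus had its highest library at 20, 28 or 36 h and its lowest at 24 or 32 h. The lowest and highest libraries of dpy-5 lay 31.6-fold apart. Footprints of dpy-4 (WBGene00001066) stood at 1314, 7203, 906, 457, 5656, 8140, 1253, 306, 5852 and 8616 CPM in order of time. Those of dpy-13 (WBGene00001074) stood at 1109, 6736, 731, 384, 5153, 7446, 1070, 246, 5068 and 7397 CPM. Both were high and low at the same times as dpy-5, and dpy-4 had its highest library at 36 h. Fitted differences were 4.75 ± 0.54 log2 for dpy-5, 4.70 ± 0.49 log2 for dpy-4 and 4.86 ± 0.52 log2 for dpy-13 (± SE of the fit).

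**Figure D2:**
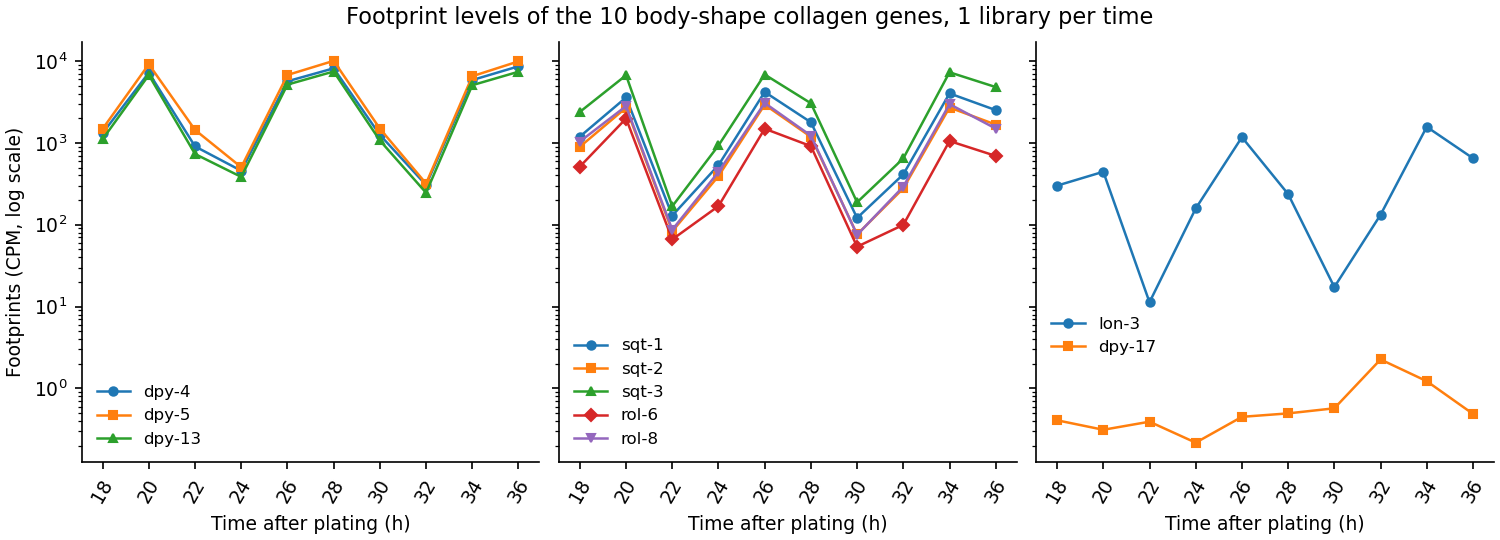
Points are footprint levels (CPM, log scale) in the single library at each time after plating (h), with dpy-4, dpy-5 and dpy-13 on the left, the sqt and rol genes in the middle, and lon-3 and dpy-17 on the right. The left genes reach their lowest points at 24 h and 32 h, the middle genes and lon-3 at 22 h and 30 h, and dpy-17 does not exceed 2.26 CPM.

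These 3 genes kept nearly fixed proportions. The ratio of dpy-4 to dpy-13 ranged from 1.07 at 20 h to 1.25 at 32 h, and the SD of its log2 over the 10 libraries was 0.074. The ratio of dpy-5 to dpy-4 ranged from 1.04 at 32 h to 1.59 at 22 h (SD 0.167 log2). That of dpy-5 to dpy-13 ranged from 1.29 at 34 h to 1.97 at 22 h (SD 0.182 log2). Over the same libraries the level of each changed at least 28.2-fold, so the proportions moved far less than the levels.

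The second course holds sqt-1, sqt-2, sqt-3, rol-6 and rol-8. SQT-1 and ROL-6 are related collagens that interact genetically, and a dominant rol-6 allele is the usual roller marker of transgenic worms. SQT-3 is an essential cuticle collagen that the astacin protease DPY-31 trims. Footprints of sqt-3 (WBGene00005018) stood at 2389, 6700, 168, 929 and 6836 CPM at 18, 20, 22, 24 and 26 h. They stood at 3047, 188, 646, 7284 and 4806 CPM at 28, 30, 32, 34 and 36 h. The lowest libraries were at 22 h and 30 h, 2 h before those of dpy-5, and the 20, 26 and 34 h libraries were the highest. Footprints of rol-6 (WBGene00004397) stood at 513, 1984, 66.2, 169, 1489, 913, 53.9, 99.7, 1053 and 693 CPM in order of time. They were lowest at 22 h and 30 h too and highest at 20 h, and the high libraries of later rounds were lower, 1489 CPM at 26 h and 1053 CPM at 34 h.

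Footprints of sqt-1 (WBGene00005016) stood at 1193, 3588, 129, 535, 4187, 1785, 121, 412, 4022 and 2514 CPM in order of time. Those of rol-8 (WBGene00004398) stood at 1037, 2815, 86.9, 442, 3070, 1226, 75.3, 292, 2973 and 1496 CPM. Those of sqt-2 (WBGene00005017) stood at 896, 2690, 83.1, 393, 2928, 1185, 76.0, 278, 2703 and 1672 CPM. Like sqt-3 these collagen genes were lowest at 22 h and 30 h, and their highest library was at 26 h. Fitted differences of the 5 genes ran from 5.10 ± 0.65 log2 for sqt-1 to 5.41 ± 0.68 log2 for sqt-3, with 5.12 ± 0.61 log2 for rol-6.

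The genes sqt-1, sqt-2, sqt-3 and rol-8 changed less in proportion to each other than to rol-6. The ratio of sqt-1 to sqt-2 stayed between 1.33 at 18 h and 1.59 at 30 h (SD 0.091 log2). The ratio of sqt-2 to rol-8 stayed between 0.864 at 18 h and 1.12 at 36 h (SD 0.103 log2). The widest of the pairs among the 4 was sqt-3 to rol-8, with ratios between 1.93 at 22 h and 3.21 at 36 h (SD 0.195 log2). Against sqt-1, its genetic partner, rol-6 stood at 0.430, 0.553, 0.512, 0.316 and 0.356 from 18 h to 26 h. It stood at 0.512, 0.445, 0.242, 0.262 and 0.276 from 28 h to 36 h (SD 0.441 log2). The 3 libraries from 32 h on held the lowest of these ratios. Over the 36 pairs among the 9 genes, the SD of the log2 ratio ran from 0.074 to 2.05 with a median of 1.12. Ratios are a description over 10 libraries that share a time order. The treatment of reads that match several collagen genes was not given in the sources used here, and values of close relatives are uncertain to that extent.

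The third course is that of lon-3 (WBGene00003057). Loss of this cuticle collagen makes worms long and extra copies make them dumpy. Its footprints, in order of time, stood at 300.4, 444, 11.3, 158 and 1173 CPM up to 26 h. From 28 h on they stood at 237, 17.3, 132, 1569 and 649 CPM. The lowest libraries were at 22 h and 30 h, as in the second course, and no other library was under 132 CPM. The highest value of each round was larger than that of the round before, at 20 h, 26 h and 34 h. The lowest and highest libraries lay 139-fold apart, the widest range of the 10 genes, and the fitted difference was 5.92 ± 0.735 log2. The ratio of lon-3 to dpy-5 was 0.415 at 32 h and 0.00786 at 22 h, and its SD of 2.05 log2 was the largest of the 36 pairs.

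Hardly any footprints fell on dpy-17 (WBGene00001076), a collagen gene whose loss makes worms dumpy and which is known to work with sqt-3. Its counts were 12, 6, 11, 4, 15, 11, 11, 50, 30 and 8 in order of time. The 2 largest were at 32 h, 2.26 CPM with an exact Poisson 95% interval of 1.68 to 2.98, and at 34 h, 1.23 CPM with an interval of 0.828 to 1.75. These intervals cover counting error only. The other libraries held 0.218 to 0.572 CPM, and the 32 h interval overlapped that of 34 h alone. No 8 h cycle was called for dpy-17 (1.40 ± 0.65 log2, edgeR adjusted p = 0.241), but leaving out the 24 h library, with its 4 counts, added that call. At 20, 26 and 34 h, when sqt-3 was high, dpy-17 stood at 0.313, 0.450 and 1.23 CPM.

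Fitted peak times separated dpy-4, dpy-5 and dpy-13 from the other 6 cycling genes, but did not set lon-3 apart from its neighbour by more than 2 SEs. In the round around 26 h the earliest peak was that of lon-3, at 26.4 ± 0.16 h (± SE of the fit). It was followed by rol-8 at 26.6 ± 0.16 h, and by sqt-2, sqt-1 and sqt-3, all at 26.7 ± 0.16 h. Then came rol-6 at 26.9 ± 0.15 h, dpy-13 and dpy-4 both at 27.5 ± 0.13 h and dpy-5 at 27.5 ± 0.14 h. Between neighbours in this order the gap from rol-6 to dpy-13, 0.589 h against a combined SE of 0.2004 h, was the only one larger than 2 combined SEs. The gap from lon-3 to rol-8 was 0.247 h against 0.225 h, and the other gaps were smaller than their combined SEs. When times were fitted as 4 phase classes, which resolve 2 h, rol-6 fell in the class of 28 h with dpy-4, dpy-5 and dpy-13, and the other 5 in that of 26 h, so the gap after rol-6 was not present there. Leaving out 1 library in turn gave peak times of 26.16 to 26.52 h for lon-3, 26.72 to 26.95 h for rol-6 and 27.35 to 27.58 h for dpy-13. These errors were computed gene by gene although all genes share the 10 libraries, so no test of the order was made. Furrow collagens had peaks between 25.3 h and 25.5 h, each 8 h before the peak in the fitted window, and all lay before that of lon-3.

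**Figure D3:**
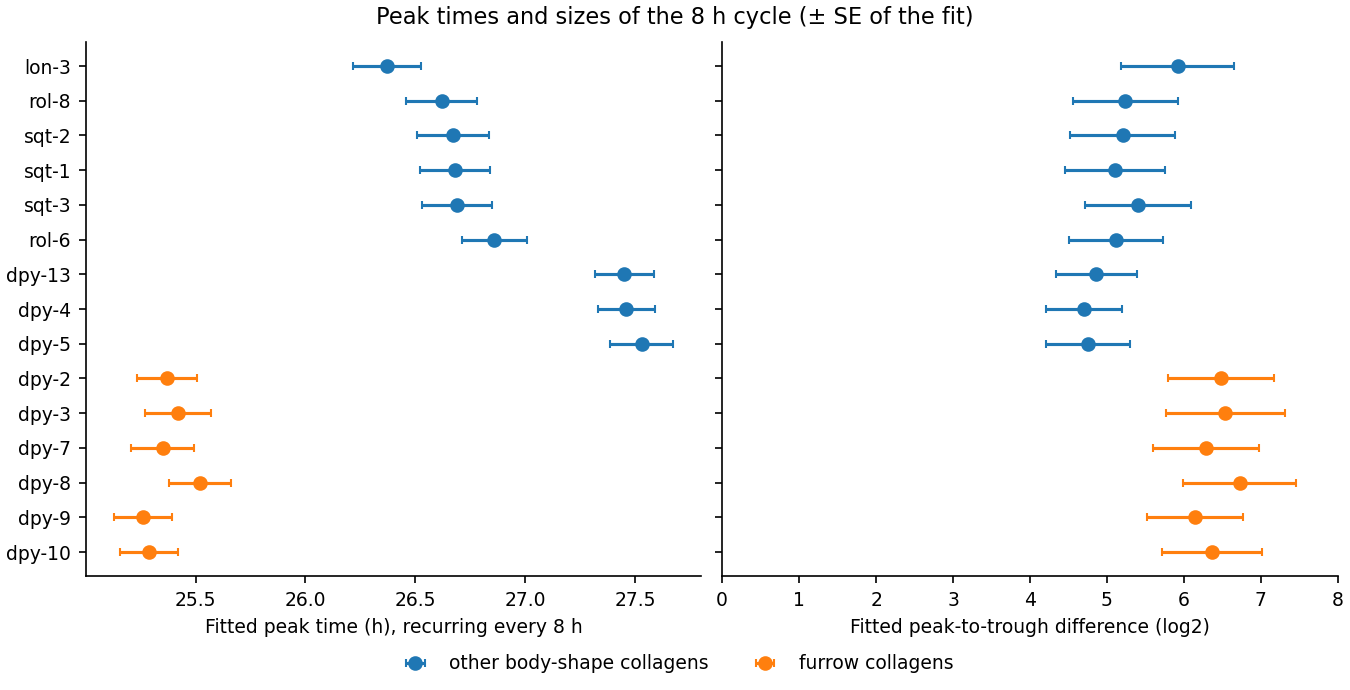
Points give the fitted peak time (h, left) and the fitted peak-to-trough difference (log2, right) of the 9 cycling genes (blue) and the 6 furrow collagens (orange), and bars are ± 1 SE of the fit. Peaks run from 26.4 h for lon-3 to 27.5 h for dpy-5, and the furrow collagens lie at 25.3 h to 25.5 h.

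Fitted sizes differed as well as fitted times. With all 10 libraries, fitted differences were 4.70 to 5.92 log2 for the 9 genes and 6.14 to 6.72 log2 for the furrow collagens, with no overlap. Single SEs of 0.49 to 0.77 log2 are larger than the distance between the 2 ranges, and the difference between the groups was not tested. Leaving out 1 library in turn gave differences of 5.29 to 6.67 log2 for lon-3, which reach into that range of the furrow collagens. Trough levels overlapped between the groups through lon-3 alone. The lowest library of each cycling gene held between 11.3 CPM (lon-3) and 319 CPM (dpy-5), with rol-6 next above lon-3 at 53.9 CPM. The lowest library of each furrow collagen held between 6.46 CPM (dpy-8) and 11.5 CPM (dpy-3).

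The step from the 18 h to the 20 h library differed from the same step in later rounds. All 9 cycling genes were higher at 20 h than at 18 h, by 0.56 log2 (lon-3) to 2.62 log2 (dpy-5). For dpy-4, dpy-5 and dpy-13 the later steps pointed the same way but were smaller, 0.53 to 0.57 log2 at 28 h over 26 h and 0.55 to 0.60 log2 at 36 h over 34 h. Of all tested genes 22.6% were higher at the later time in all 3 steps. The 6 sqt, rol and lon genes went the other way in the later rounds. At 28 h over 26 h their changes ran from -2.31 log2 (lon-3) to -0.71 log2 (rol-6). At 36 h over 34 h they ran from -1.27 log2 (lon-3) to -0.60 log2 (sqt-3 and rol-6). This pattern of 1 higher and 2 lower steps was present in 6 of the 10 genes and in 9.28% of all tested genes. No furrow collagen had either pattern, since all 6 were lower at 20, 28 and 36 h than 2 h before.

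**Figure D4:**
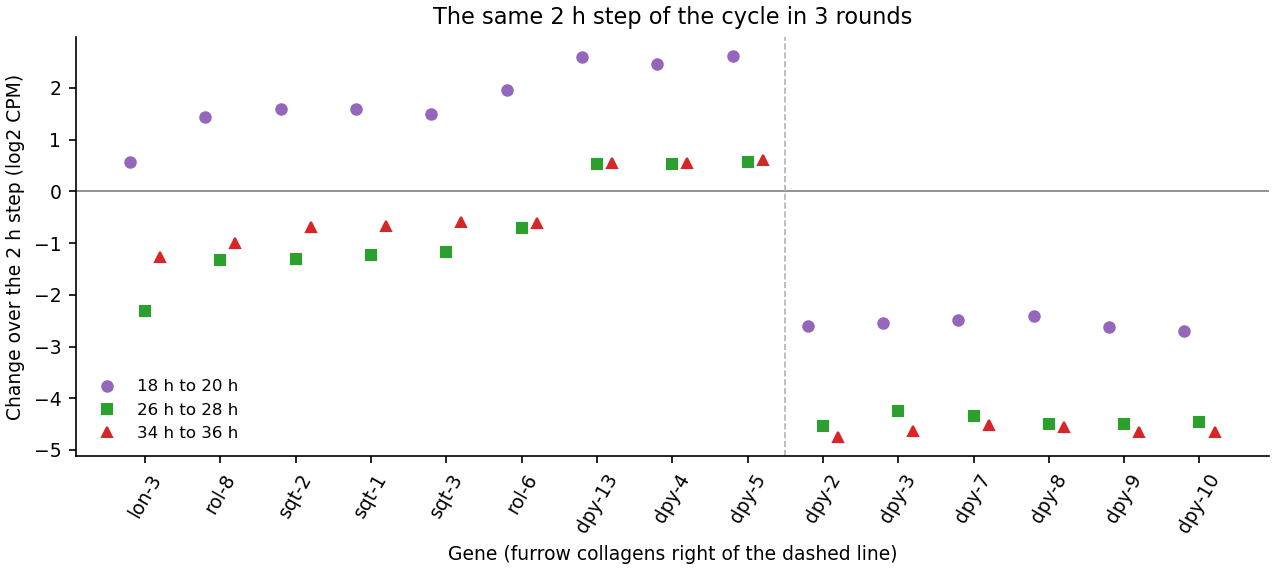
Points give the change (log2 CPM) from 18 h to 20 h, from 26 h to 28 h and from 34 h to 36 h for the 9 cycling genes and, right of the dashed line, the 6 furrow collagens. The first step lies above zero for all 9 genes, and the later steps lie above zero for dpy-4, dpy-5 and dpy-13 and below zero for the other 6.

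Libraries 8 h apart, which stand at the same point of an 8 h cycle, were compared as values without replicates. Of the 10 genes 9 were at least 1 log2 higher at 26 h than at 18 h, against 5.25% of all tested genes. For those 9 the excess ran from 1.52 log2 (sqt-3) to 2.22 log2 (dpy-13). All 6 furrow collagens were lower at 26 h than at 18 h, with differences of -0.75 to -0.24 log2. At 34 h over 26 h the 9 genes differed by -0.50 log2 (rol-6) to 0.42 log2 (lon-3), with a median of -0.05 log2. For these 9 genes the 18 h value thus lay apart from those at 26 h and 34 h. Over all tested genes the median difference of 26 h over 18 h was 0.0 log2. TMM scaling brings such medians close to that value, so it offers no comparison. At 28 h all 6 sqt, rol and lon genes were lower than at 20 h, with differences of -1.199 to -0.91 log2, while dpy-4, dpy-5 and dpy-13 were 0.14 to 0.18 log2 higher. The furrow collagens differed more in that pair of libraries, by -2.45 to -2.09 log2. At 32 h all 9 were lower than at 24 h, with differences of -0.76 log2 (rol-6) to -0.26 log2 (lon-3), and so were the 6 furrow collagens (-0.87 to -0.45 log2). With the 18 h and 20 h libraries left out, which was tried after the data had been seen, the same 9 genes were called.

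For the 9 cycling genes, fitted linear trends over the 18 h were smaller than the cycle, while for dpy-17 the trend was the larger of the pair. Rising trends were called for 1 of the 10 genes, against 15.7% of all tested genes, and falling trends for 0 of 10, against 10.8%. With DESeq2, with limma and at an unadjusted p under 0.05, the number of falling trends was also 0. The fitted trend of dpy-17 was the one called, at 2.03 ± 0.72 log2 (edgeR adjusted p = 0.0498). It rests on counts of 4 to 50 and lost its call under 20 of 26 alternatives, including DESeq2 (adjusted p = 0.0529) and leaving out any library other than that of 24 h. Over these alternatives its adjusted p ran from 0.0311 to 0.159. Trends of the other 9 genes ran from -0.71 ± 0.66 log2 for rol-6 to 1.21 ± 0.80 log2 for lon-3 (edgeR adjusted p from 0.251 to 0.978). Without the 18 h library the fitted trend of rol-6 was called as falling, at -1.53 ± 0.37 log2 (edgeR adjusted p = 0.0151). Without the 20 h library the fitted trend of lon-3 was called as rising, at 2.53 ± 0.66 log2 (edgeR adjusted p = 0.0341). Fitted trends of the 6 furrow collagens ran from -2.10 to -1.43 log2, and none was called.

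Between genes, levels were compared per kilobase of coding sequence, taking the longest coding sequence of each gene in the Ensembl annotation. Coding lengths of the 10 genes run from 852 bases (dpy-5) to 1056 bases (dpy-17), with 1 to 3 coding exons. Mean levels over the 10 libraries were 5586 CPM per kb for dpy-5, 4579 for dpy-4, 3901 for dpy-13 and 3654 for sqt-3. They were 1902 CPM per kb for sqt-1, 1443 for sqt-2, 1369 for rol-8, 674 for rol-6, 483 for lon-3 and 0.647 for dpy-17. The order changed within the cycle. The highest of the 10 was dpy-5 at 20, 22, 26, 28, 30 and 36 h and sqt-3 at 18, 24, 32 and 34 h. The ranges over libraries overlapped between all neighbours in the order but the last pair, since dpy-17 did not exceed 2.14 CPM per kb and lon-3 did not go below 11.6 CPM per kb. Close neighbours such as sqt-2 and rol-8 swapped places between libraries.

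Genes with the most similar course were sought among 7525 other genes with a mean of at least 10 CPM, by Pearson's r of log2 CPM over the 10 libraries. These r describe shared time order and carry no test. The closest to dpy-4 and to dpy-13 was the cuticle collagen gene col-111 (r = 0.993 for both), and the closest to dpy-5 was F01D5.10 (r = 0.994). The gene F47B7.2 was closest to sqt-1, sqt-2, sqt-3 and rol-8 (r = 0.998, 0.996, 0.996 and 0.992). Its fitted difference was 2.10 ± 0.29 log2, against 5.10 ± 0.65 log2 for sqt-1, so the likeness is one of shape and not of size. Closest to rol-6 was ZC84.1 (r = 0.989), and closest to lon-3 was the hedgehog-related gene grd-1 (r = 0.993). For dpy-17, with only 4 to 50 counts per library, it was the lysozyme gene lys-1 (r = 0.900). The fitted difference of lys-1 was 0.20 ± 0.10 log2, against 1.40 ± 0.65 log2 for dpy-17. The mean course of the 9 cycling genes was most like those of the moulting gene mlt-10 (r = 0.995), the patched-related ptc-3 (r = 0.993), pqn-32 (r = 0.992), the hedgehog-related wrt-9 (r = 0.990) and abu-13 (r = 0.990).

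Most enzymes that modify and cross-link collagens cycled, and all but 1 of those that did had fitted peaks outside the span of the 9 collagens. Of 10 such genes 8 cycled, against 22.7% of all tested genes (5 without the 22 h library), with a median difference of 1.76 log2. The most abundant was pdi-2, which encodes the protein disulphide isomerase subunit of collagen prolyl hydroxylase. Its lowest library was at 22 h with 2642 CPM and its highest at 34 h with 11270 CPM, and it peaked at 25.5 ± 0.15 h in the round around 26 h. The thioredoxin-like gene dpy-11 had a fitted difference of 2.75 ± 0.44 log2 and a peak at 26.0 ± 0.20 h. Both peaks lay before that of lon-3, the earliest of the 9 collagens. The haem peroxidase gene mlt-7 differed by 4.40 ± 0.61 log2 and the oxidase maturation gene doxa-1 by 3.65 ± 0.36 log2. Their peaks at 29.7 ± 0.18 h and 29.6 ± 0.13 h lay after that of dpy-5, the latest of the 9. Within the span lay only dpy-18, which encodes the catalytic subunit of prolyl hydroxylase, at 26.4 ± 0.23 h. The peak of lon-3 was fitted at 26.4 ± 0.16 h. With these SEs the places of dpy-11 and dpy-18 inside or outside the span were not resolved. The SQT-3 protease gene dpy-31 differed by 1.67 ± 0.27 log2 and peaked at 24.9 ± 0.21 h, before sqt-3. In this list 1 gene had a rising trend (dpy-18) and 1 a falling one (tsp-15). Neither the proprotein convertase gene bli-4 nor the dual oxidase gene bli-3 was called (0.42 ± 0.26 and 0.13 ± 0.18 log2).

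Other collagens and upstream genes were examined in 4 further lists. Neither type IV collagen, the basement membrane kind encoded by emb-9 and let-2, was called. Both passed the adjusted p (0.0157 and 0.00716) at 0.57 ± 0.12 and 0.76 ± 0.13 log2, under the size required. The adult strut collagen bli-2 was called as cycling (5.66 ± 1.15 log2), and bli-1 missed the adjusted p (6.49 ± 1.60 log2, edgeR adjusted p = 0.0622). Both had a rising trend that was larger than the fitted cycle, 16.35 log2 for bli-1 and 9.65 log2 for bli-2. Their lowest libraries were 0.0714 CPM for bli-1 and 0.500 CPM for bli-2, both at 22 h. Their highest libraries were 5551 CPM for bli-1 and 3385 CPM for bli-2, both at 34 h. Of 12 tested genes of the DBL-1 TGF-beta pathway, which sets body size in this animal, 2 cycled, against 22.7% of all tested genes. They were sma-3 at 1.49 ± 0.31 log2 and crm-1 at 1.45 ± 0.21 log2. That count was 4 with total counts alone, with limma on the deposited normalized values, with no minimum size and without the 18 h library. It was 1 without the library of 22 h or that of 30 h. Without the linear time term and with periods of 7 h and 9 h it was 0. Falling trends were called for 2 of the 12 (daf-4 and crm-1), against 10.8% of all tested genes. The most abundant, sma-9, was not called (0.55 ± 0.16 log2). Of 10 epidermal and moulting regulators 4 cycled (22.7% of all tested genes), 1 rose (lin-29; 15.7%) and 2 fell (grh-1 and elt-1; 10.8%). Fitted cycle peaks were at 27.2 ± 0.18 h for bed-3, 25.4 ± 0.11 h for lin-42 and 26.0 ± 0.15 h for grh-1. The most abundant, myrf-1, peaked at 24.45 ± 0.13 h.

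Marker genes of other tissues were present throughout. Summed shares of counts ranged 1.45-fold over the libraries for 9 body-wall muscle markers, 2.00-fold for 8 intestinal, 2.27-fold for 8 neuronal, 3.68-fold for 8 germline and 4.07-fold for 6 pharyngeal markers. No marker of these 5 lists was at 0 in any library, and those that cycled were 3 of the 8 intestinal and 3 of the 6 pharyngeal ones, against 22.7% of all tested genes. For 8 epidermal markers the range was 3.27-fold, with the lowest share at 28 h (0.140%) and the highest at 24 h (0.458%), and 5 of the 8 cycled. That list was therefore lowest in a library where dpy-4, dpy-5 and dpy-13 were high. In the other libraries where these genes were high, the list held 0.186% at 20 h, 0.383% at 26 h, 0.402% at 34 h and 0.178% at 36 h. It includes the furrow gene dpy-7, and without it the lowest and highest shares were 0.137% at 28 h and 0.389% at 24 h. Seam cell markers, with 5 of 6 found, ranged 22.0-fold, with the highest share at 18 h (0.0436%) and the lowest at 36 h (0.00198%), and the next lowest was 0.0118% at 28 h. Of 4 tested 3 cycled, and 1 of the 5 was at 0 in at least 1 library. The part of these shares in the collagen values was not tested.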

How the data were processed

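Per the labels, footprint libraries were made from whole worms at 10 times. The authors deposited raw gene counts, and log2 values of the counts scaled to the mean library total with 8 added (largest difference from that formula 5e-05 log2). Bowtie is named in the submitters' processing notes. Build, annotation and counting rule were not given in the sources used here, and coordinates and sequences were not used here. Coding lengths came from the Ensembl annotation of WBcel235.

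Tested genes passed the CPM of 10 counts in the median library (0.441 CPM) in 3 or more libraries. After TMM scaling (factors 0.828 to 1.16), edgeR 4.0.16 in R 4.3.3 fitted, by robust quasi-likelihood, linear time plus a sine and a cosine of 8 h, leaving 6 residual degrees of freedom. Adjustment was Benjamini-Hochberg, across the 13958 tested genes. Errors of differences and peak times are delta-method SEs. Alternatives, 28 in all, changed the scaling, filter, period, model, tool (limma 3.58.1, DESeq2 1.42.0) or libraries used, 2 of them chosen after seeing the data. Differences between libraries given for single collagen genes are differences of log2 CPM with nothing added. Medians over all tested genes, and counts of genes with a given step pattern, used log2(CPM + 0.5). No columns were left out.

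All 10 genes were described. From each other list the rule named up to 3 cycling genes with the largest differences and the most abundant member. Genes of these lists named outside the rule were added after their values were seen. The genes, lists, period and tests were chosen with earlier results of these data known. Separate cultures are not stated for the libraries, and the scatter behind the p-values may be technical.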

Additional observations from a re-analysis of the deposited data

Results flagged for a closer look

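For 6 of the 10 genes the step from 18 h to 20 h ran against both later steps at the same point of the 8 h cycle. No step has a replicate, and the difference was not tested. At 20 h, against 18 h, sqt-1 was 1.59 log2 higher, sqt-2 1.59 log2, sqt-3 1.49 log2, rol-6 1.95 log2, rol-8 1.44 log2 and lon-3 0.56 log2. At 28 h, against 26 h, the change was -1.23 log2 for sqt-1, -1.30 log2 for sqt-2, -1.17 log2 for sqt-3, -0.71 log2 for rol-6, -1.32 log2 for rol-8 and -2.31 log2 for lon-3. At 36 h, against 34 h, it was -0.68 log2 for sqt-1, -0.69 log2 for sqt-2, -0.60 log2 for sqt-3 and rol-6, -0.99 log2 for rol-8 and -1.27 log2 for lon-3. This pattern was present in 9.28% of all tested genes. The direction of every one of these steps was the same with total counts alone.

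At 24 h over 22 h dpy-17 changed by -0.85 log2, and at 32 h over 30 h by 1.98 log2. At 26 h over 24 h it changed by 1.05 log2, and at 34 h over 32 h by -0.88 log2. The counts behind these dpy-17 values are 11, 4 and 15 in the first round and 11, 50 and 30 in the second. These differences were not tested either.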

How the results depend on the processing

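The count of 9 cycling genes moved to 0 with periods of 7 h and 9 h and to 5 with 8.5 h, where sqt-1, sqt-2, sqt-3 and rol-8 were lost. All tested genes called numbered 0, 0 and 2222 with these periods, against 3174 with 8 h. With a period of 7.5 h and under the other alternatives run, the 9 genes remained called. Leaving out each library in turn gave 9 to 10 genes, the added one being dpy-17 without the 24 h library. Peak times of sqt-1, sqt-2, sqt-3, rol-8 and lon-3 moved by more than 1 SE without the 20 h library, without the 18 h and 20 h libraries and with 4 phase classes. That of rol-6 did so under the last 2 settings, and those of dpy-4, dpy-5 and dpy-13 with 4 phase classes. The single rising trend (dpy-17) gave 0 to 1 genes with a library left out, where the 1 without the 20 h library is lon-3. It moved to 0 without the filter, with scaling by total counts, with a minimum mean of 50 counts, with DESeq2, with both limma fits, and with periods of 8.5 h and 9 h, 4 phase classes, quadratic time, thinning to the shallowest library or without the 18 h and 20 h libraries. The cause was not tested, except that the minimum mean of 50 counts removes dpy-17. Falling trends numbered 0 to 1 with a library left out, the 1 being rol-6 without the 18 h library. Without the linear time term 2062 tested genes cycled, and with no minimum size 4796 did. Falling trends over all tested genes were 1509, against 2440 with total counts alone, 943 with the minimum mean and 2635 with no minimum size. Rising trends were 2186, against 1313 with that mean. TMM factors, by which library totals are multiplied, ran from -0.27 log2 at 36 h to 0.21 log2 at 22 h. Relative to total counts alone, they raised levels at 36 h and lowered those at 22 h. With total counts alone, dpy-4 and sqt-3 at 34 h over 26 h, dpy-4 at 36 h over 28 h and dpy-5 at 30 h over 22 h changed sign among the 9 genes, and no 2 h step did. No paired analysis was possible because each time has 1 library. Depth limits dpy-17 alone among the 10 genes, since the others had at least 317 counts in every library.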
